A study of Homo sapiens with 16 samples.

Results

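The genes described are 9 enzymes that make, recycle or break down deoxynucleotides, the building blocks of DNA: RRM1, RRM2, TYMS, DUT, DTYMK, DCTD, TK1, DCK and SAMHD1. They were taken by symbol from the 20531 entries of the gene table, and all 9 had enough counts to be among the 10684 genes tested. The set was chosen by symbol around RRM2, which was selected on its fold change between siRNAs, after its difference between SLIRP and control siRNA in these libraries was known, so the comparisons between siRNAs are given for the 9 genes as a description without p-values, and counts of calls there stand only beside those of all genes.

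The cells were LNCaP, a human prostate cancer line that responds to androgen. They received siRNA at 40 nM for 24 h and then serum-free medium with vehicle or 1 nM dihydrotestosterone (DHT), an androgen, for 24 h more. The siRNA was either a nonsense sequence (NS) or a pool against SLIRP, an RNA-binding protein studied as a transcriptional corepressor. The 4 groups were NS-Veh (nonsense siRNA and vehicle), NS-DHT (nonsense siRNA and 1 nM DHT), SLIRP-Veh (SLIRP siRNA and vehicle) and SLIRP-DHT (SLIRP siRNA and 1 nM DHT), each with 4 libraries. All cells were of this 1 line, all had been transfected and kept without serum, and libraries without siRNA were not analysed here.

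The libraries held between 436353 and 1689708 estimated counts, and NS-Veh had the shallowest library. Levels are given as CPM, the counts of a gene set on a common library size after TMM scaling. SLIRP mRNA, listed as C14orf156, averaged 59.3 CPM in NS-Veh (SD 2.75, n = 4) against 4.14 CPM in SLIRP-Veh (SD 2.63), a log2 fold change of -4.02 (SE 0.29), and averaged 54.9 CPM (SD 6.92) in NS-DHT and 3.50 CPM (SD 3.07) in SLIRP-DHT. The luminal prostate markers were present, with HOXB13 between 152 and 412 CPM over the 16 libraries, though KLK2 fell to 1.32 CPM and KLK3 to 25.5 CPM. The basal markers KRT5 and TP63 and the leukocyte marker PTPRC had 0 counts in every library. Other markers were not all absent. The highest count in a library was 2 for basal KRT14, 6 for leukocyte CD68, 58 for neuroendocrine ENO2, 25 for stromal COL1A1 and 20 for endothelial VWF. The summed level of the 8 luminal markers was 5687 to 6550 CPM in the NS groups and 3513 to 4019 CPM in the SLIRP groups, and the part of this in the results below was not tested.

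Ribonucleotide reductase turns ribonucleotides into deoxynucleotides and is built from the large subunit RRM1 and a small subunit, either RRM2, whose mRNA and protein rise when cells copy their DNA, or RRM2B, which p53 induces. Thymidylate has a route of its own, in which DCTD and DUT supply dUMP, TYMS methylates it to dTMP and DTYMK phosphorylates dTMP. TK1 and DCK recover nucleosides by salvage, and SAMHD1 cuts deoxynucleoside triphosphates and so lowers the pool. Most of these genes are known for S phase expression in dividing cells, and promoters of such genes often carry sites for E2F factors, CCAAT boxes bound by NF-Y, or the cell cycle homology region (CHR). In RNA from whole cultures, a larger fraction of cells in S phase and more mRNA per cell cannot be told apart.

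The promoter letters around some of the matches are shown so that these motifs can be read in place. The CCAAT matches of SAMHD1 and all CHR matches are among those not printed. The windows come from RefSeq promoters on GRCh38.p14, which reach from 250 bases before a start site to 50 bases after it, and the 9 genes have 15 such promoters. Both strands were searched for TTTNNCGC (E2F), CCAAT and TTTGAA (CHR), where N is any base. The capitals mark the match, positions count from the start site, and each sequence is written 5′ to 3′ on the strand of the gene.
RRM2, CCAAT at -123, + strand, chr2:10122606-10122630: caaggcgcagCCAATgggaagggtc
RRM2, CCAAT at -93, + strand, chr2:10122636-10122660: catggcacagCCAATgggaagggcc
RRM2, CCAAT at -66, + strand, chr2:10122663-10122687: ggcaccaaagCCAATgggaagggcc
TK1, ATTGG at -77, the motif read on the opposite strand, − strand, chr17:78187115-78187139: ccgggcgctgATTGGccccatggcg
TK1, ATTGG at -46, − strand, chr17:78187084-78187108: ccggctcgtgATTGGccagcacgcc
DTYMK, CCAAT nearest the start, − strand, chr2:241686825-241686849: ttgacgccggCCAATgggagctccg
RRM1, CCAAT, + strand, chr11:4094647-4094671: atgtccatatCCAATggggcccatg
TYMS, E2F letters on the other strand, + strand, chr18:657604-657631: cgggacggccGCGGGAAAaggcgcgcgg
DUT, E2F letters on both strands, + strand, chr15:48332152-48332180: ctgGCGGGAAAtttcggtTTTGGCGCgct
DCK, E2F letters on the other strand, + strand, chr4:70993660-70993687: ctgcctccgcGCGCCAAAgtcaaacccc

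The 3 copies in 1 of the 2 RRM2 promoters shared a run of 15 bases, agCCAATgggaaggg. CCAAT was in 6 of the 15 promoters, of 5 genes (RRM1, RRM2, TK1, DTYMK and SAMHD1), beside 34.6% of the 35116 RefSeq promoters. The E2F letters were in 3 of the 15, of TYMS, DUT and DCK, beside 6.89% of all promoters, and TTTGAA was in 2 of the 15, of RRM1 and DUT, beside 15.2%. Promoters of DCTD held none of the 3 motifs. No matches of different motifs overlapped in these promoters, and a match is a run of letters and not a measured site of binding.

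RRM2 (Entrez 6241, hg19 chromosome 2, 10260825 to 10351851, + strand) had the widest range of the 9 genes in CPM. Its level was 36.02, 32.4, 64.1 and 62.6 CPM in NS-Veh replicates 1 to 4, 96.5, 104.1, 134.1 and 149.9 CPM in NS-DHT, 333.8, 339.7, 297.3 and 312.0 CPM in SLIRP-Veh and 461.7, 479.5, 462.2 and 461.6 CPM in SLIRP-DHT. None of the 4 groups overlapped its neighbour in this order. In both NS groups replicates 1 and 2 were the 2 lowest libraries, and in NS-Veh replicates 1 and 2 rest on 18 and 14 counts. The log2 fold change between siRNAs was 2.55 (SE 0.14) in vehicle, or 5.85-fold, and 1.93 (SE 0.11) in DHT, or 3.81-fold. RRM2 has 3 named pseudogenes in the annotation, so some reads may have been shared between copies.

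**Figure D1:**
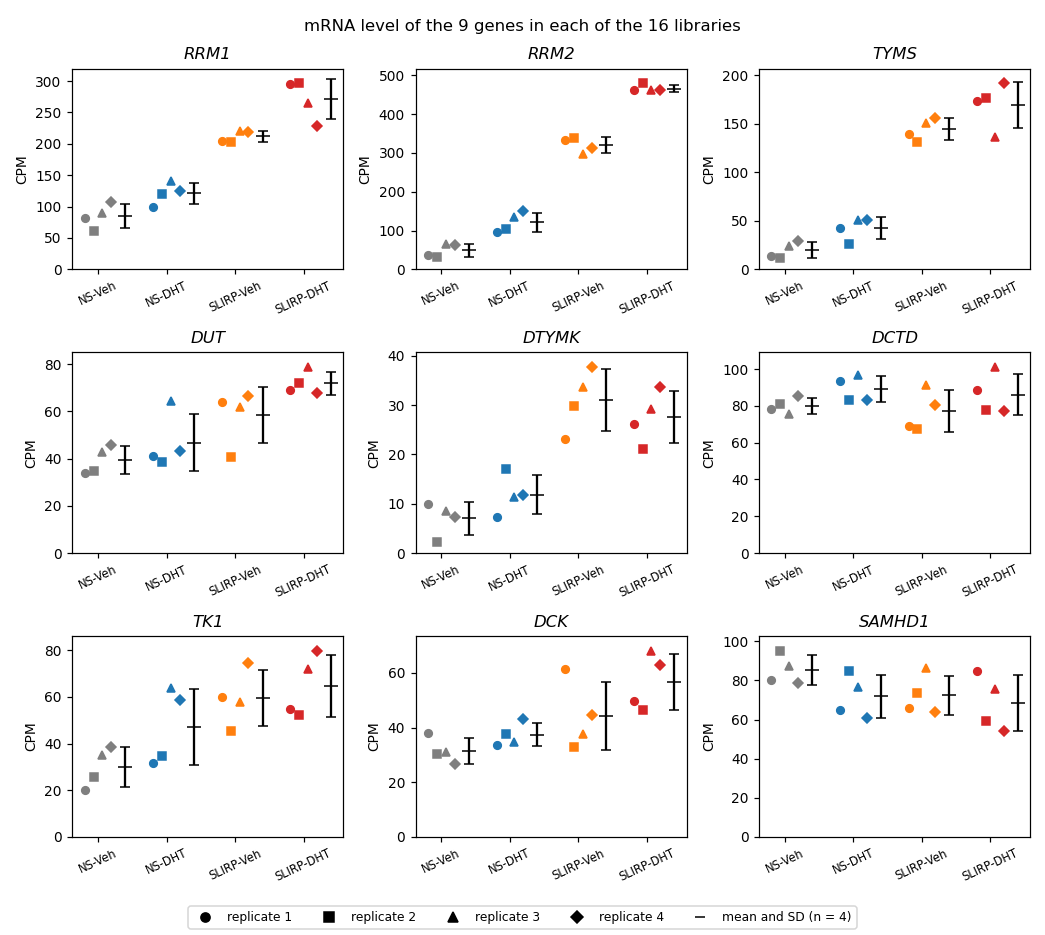
CPM of each of the 9 genes (y axes, from 0, with a scale of their own) in the 16 libraries by group (x axes), with 1 symbol per replicate and the mean and SD (n = 4) in black. RRM2 lies at 4 levels from NS-Veh to SLIRP-DHT without overlap, while DCTD and SAMHD1 overlap between all groups.

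RRM1 (Entrez 6240, chromosome 11, 4115937 to 4160162, + strand), the large subunit that RRM2 needs as its partner, moved over a narrower range. It was 82.1, 60.3, 89.9 and 107.6 CPM in NS-Veh, 99.6, 120.3, 140.2 and 125.0 CPM in NS-DHT, 204.2, 203.5, 220.6 and 218.2 CPM in SLIRP-Veh and 294.7, 296.1, 265.1 and 227.6 CPM in SLIRP-DHT. Every SLIRP siRNA library lay above every NS library, and the log2 fold change between siRNAs was 1.23 (SE 0.12) in vehicle and 1.14 (SE 0.11) in DHT. Exons of RRM1 overlap those of the antisense gene RRM1-AS1. RRM2B, the alternative small subunit, was 165 ± 21.8 CPM (SD, n = 4) in NS-Veh, 171 ± 14.4 in NS-DHT, 200 ± 23.1 in SLIRP-Veh and 208 ± 30.3 in SLIRP-DHT. Its difference between siRNAs was 0.31 (SE 0.11) on the log2 scale in vehicle and 0.27 (SE 0.11) in DHT, and neither passed the test (edgeR quasi-likelihood test, Benjamini-Hochberg FDR 0.033 and 0.046, threshold 0.01).

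Because the 3 subunit genes differed in size of change, their counts were set against each other within each library, a ratio that does not depend on how libraries are scaled. For every count of RRM1 there were 0.439 to 0.713 counts of RRM2 in NS-Veh, 0.865 to 1.20 in NS-DHT, 1.35 to 1.67 in SLIRP-Veh and 1.57 to 2.03 in SLIRP-DHT. The 2 subunit mRNAs have nearly the same length in the annotation, 3142 and 3258 bases, so RRM2 passed from the less abundant to the more abundant of the pair. Against RRM2B, the ratio of counts went from 0.188 to 0.447 in NS-Veh, 0.508 to 0.962 in NS-DHT, 1.49 to 1.78 in SLIRP-Veh and 2.05 to 2.81 in SLIRP-DHT, with no overlap between neighbouring groups. The choice of RRM2 did not use the comparison of DHT with vehicle in SLIRP siRNA cells. It did rest on values of SLIRP siRNA libraries, so the data are not independent of the choice. In these cells the mean log2 ratio of RRM2 to RRM2B differed by 0.49 between DHT and vehicle (SE 0.12, two-sided exact permutation test, p = 0.0286, adjusted over 4 tests 0.0381). This is the smallest p that 4 against 4 libraries can give. It takes the 4 libraries of a group as exchangeable, although they came from 2 experiments. The 4 tests adjusted together include those in NS cells, whose libraries gave the study's list in which RRM2 stands. The adjusted value may be too low for that reason. In SLIRP siRNA cells the ratio of RRM2 to RRM1 differed by 0.19 between DHT and vehicle (SE 0.11, exact permutation p = 0.171, adjusted 0.171), and there the groups overlapped.

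**Figure D2:**
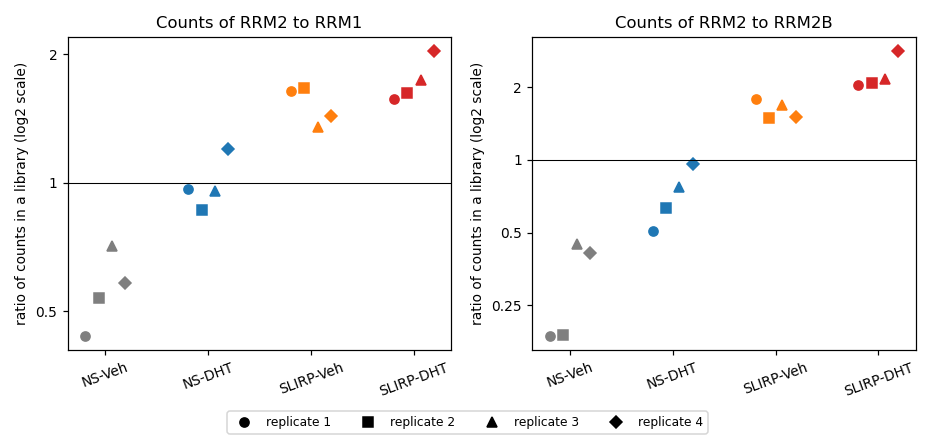
Counts of RRM2 divided by counts of RRM1 (left) and of RRM2B (right) in each library (y axes, log2 scale), by group (x axes), with 1 symbol per replicate. Both ratios lie below 1 in all NS-Veh libraries and above 1 in all libraries with SLIRP siRNA.

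TYMS (Entrez 7298, chromosome 18, 657653 to 673578, + strand), the enzyme that makes dTMP, followed RRM2 most closely among the 9. It was 14.01, 11.6, 23.8 and 28.9 CPM in NS-Veh, 43.0, 26.2, 50.5 and 50.5 CPM in NS-DHT, 139.1, 131.5, 150.7 and 156.02 CPM in SLIRP-Veh and 173.5, 176.3, 135.9 and 191.4 CPM in SLIRP-DHT. The siRNA groups stood far apart, at a log2 fold change of 2.68 (SE 0.19) in vehicle, or 6.40-fold, and 1.99 (SE 0.15) in DHT, whereas the DHT and vehicle groups overlapped within each siRNA. The vehicle value rests on 5 to 36 counts per library in NS-Veh. TYMS has 2 named pseudogenes. Its exons overlap those of the antisense genes ENOSF1 and TYMSOS, and how strand was used in counting is not given in the sources used here. ENOSF1 itself had a log2 fold change of -0.50 (SE 0.25) between siRNAs in vehicle and -0.40 (SE 0.22) in DHT, so its counts did not follow those of TYMS.

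DTYMK (Entrez 1841, chromosome 2, 242615162 to 242626359, − strand), which acts directly after TYMS, had the lowest mean CPM of the 9 in every group. Per kilobase of transcript it was last in the NS groups only. It was 10.01, 2.3, 8.6 and 7.2 CPM in NS-Veh, 7.3, 17.0, 11.3 and 11.7 CPM in NS-DHT, 23.1, 29.7, 33.6 and 37.7 CPM in SLIRP-Veh and 26.1, 21.2, 29.1 and 33.8 CPM in SLIRP-DHT. All libraries with SLIRP siRNA lay above all NS libraries, but the NS-Veh values rest on 1 to 13 counts, and the log2 fold changes of 1.99 (SE 0.30) in vehicle and 1.21 (SE 0.26) in DHT have the widest errors of the 9.

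The enzymes upstream of TYMS differed much less. DUT (Entrez 1854, chromosome 15, 48623208 to 48635570, + strand), which makes dUMP and keeps uracil out of DNA, was 39.4 ± 5.87 CPM (SD, n = 4) in NS-Veh, 46.8 ± 11.9 in NS-DHT, 58.3 ± 11.9 in SLIRP-Veh and 71.8 ± 4.90 in SLIRP-DHT. Its log2 fold change between siRNAs was 0.54 (SE 0.18) in vehicle, where the groups overlapped, and 0.62 (SE 0.16) in DHT, where they did not. DUT has 8 named pseudogenes and its exons overlap those of the antisense gene DUT-AS1, which makes its counts uncertain. DCTD (Entrez 1635, chromosome 4, 183811213 to 183839089, − strand), which deaminates dCMP to dUMP, was 79.9 ± 4.21, 89.2 ± 6.88, 77.2 ± 11.2 and 86.1 ± 11.3 CPM in the same order of groups. Its log2 fold change between siRNAs was -0.06 (95% interval -0.33 to 0.21) in vehicle and -0.04 (-0.29 to 0.21) in DHT, and all groups overlapped.

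TK1 and DCK are the salvage kinases of the set. TK1 (Entrez 7083, chromosome 17, 76170172 to 76183314, − strand), a thymidine kinase of S phase cells, was 20.01, 25.5, 35.0 and 38.5 CPM in NS-Veh, 31.5, 34.7, 63.6 and 58.5 CPM in NS-DHT, 59.8, 45.4, 57.9 and 74.5 CPM in SLIRP-Veh and 54.8, 52.2, 71.9 and 79.6 CPM in SLIRP-DHT. In NS-DHT replicates 3 and 4 reached the range of the SLIRP siRNA libraries while replicates 1 and 2 did not. The log2 fold change between siRNAs was 0.90 (SE 0.22) in vehicle, without overlap, and 0.48 (SE 0.19) in DHT, with overlap. DCK (Entrez 1633, chromosome 4, 71858255 to 71896631, + strand), which salvages deoxycytidine and purine deoxynucleosides, was 31.4 ± 4.82, 37.3 ± 4.26, 44.2 ± 12.5 and 56.7 ± 10.3 CPM in the same order, at a log2 fold change of 0.62 (SE 0.20) in vehicle and 0.62 (SE 0.18) in DHT. Exons of DCK overlap those of MOB1B on the same strand, and its counts are uncertain for that reason.

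SAMHD1 (Entrez 25939, chromosome 20, 35518632 to 35580296, − strand), the triphosphohydrolase that lowers the deoxynucleotide pool, was 85.2 ± 7.52 CPM in NS-Veh, 71.8 ± 11.0 in NS-DHT, 72.3 ± 10.1 in SLIRP-Veh and 68.4 ± 14.3 in SLIRP-DHT. All groups overlapped, and its log2 fold change between siRNAs was -0.25 (95% interval -0.55 to 0.05) in vehicle and -0.09 (-0.39 to 0.21) in DHT. Exons of SAMHD1 overlap those of TLDC2 on the opposite strand. SAMHD1 is known to be induced by interferon. Of all genes tested, 9.95% were called lower with SLIRP siRNA in vehicle and 11.6% in DHT. Of a list of interferon-stimulated genes set beside SAMHD1, 17 were tested. Of these 17, 16 were called lower in vehicle and 16 in DHT, at a median log2 fold change of -2.66 and -3.04. The summed level of the 20 genes of that list was 1041 to 1543 CPM in the NS groups and 295 to 370 CPM in the SLIRP groups, and its part in the other differences between siRNAs was not tested.

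**Figure D3:**
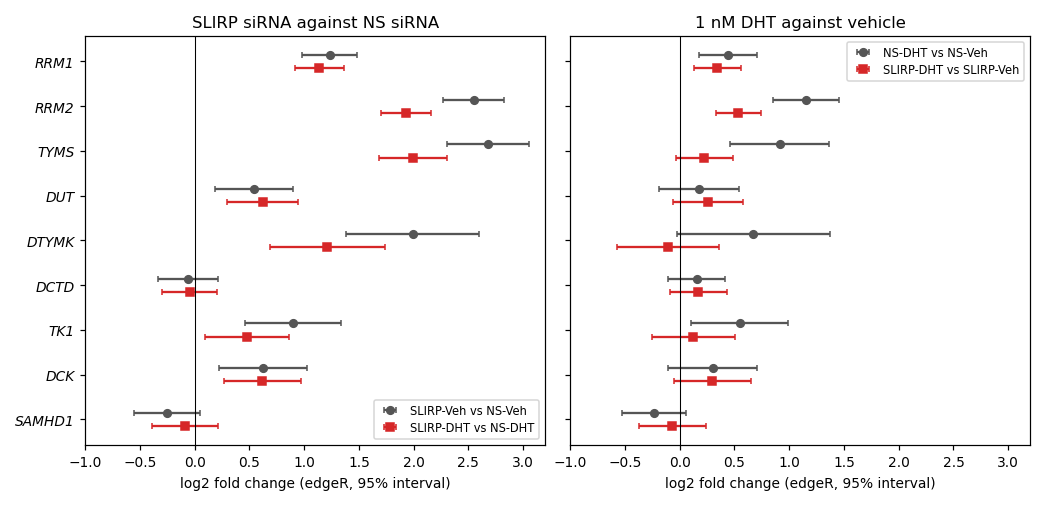
Log2 fold changes (x axes) with 95% intervals from the model over 16 libraries for the 9 genes (y axis), between siRNAs (left, circles in vehicle and squares in DHT) and between DHT and vehicle (right, circles in NS and squares in SLIRP siRNA cells). RRM2, TYMS, DTYMK and RRM1 lie farthest to the right between siRNAs, while the intervals of DCTD and SAMHD1 include 0 in all 4 comparisons.

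Of the 9 genes, 5 were called higher with SLIRP siRNA in vehicle at an FDR of 0.01 (RRM1, RRM2, TYMS, TK1 and DTYMK), where 11.8% of all genes tested were called higher. In DHT 6 were called higher (RRM1, RRM2, TYMS, DUT, DCK and DTYMK), where 12.8% of all genes were. Groups without overlap were found for 5 of the 9 in vehicle and 6 in DHT, against 15.3% and 15.8% of all genes in that direction. As the comparison led to the choice of RRM2, nothing is read from these counts.

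Set per kilobase of the representative transcript, which allows levels of different genes to be compared, the order of the 9 genes was not the same in the 4 groups. In NS-Veh the mean level was highest for DCTD, 41.4 CPM per kilobase, followed by RRM1 at 27.0, TK1 at 20.8, DUT at 18.4, SAMHD1 at 18.3, RRM2 at 14.98, DCK at 12.5, TYMS at 12.1 and DTYMK at 6.69. Only DCTD was separate from the next gene in that order, and all other neighbours overlapped. In NS-DHT, DCTD (46.2), RRM1 (38.6) and RRM2 (37.2 CPM per kilobase) came first, and every neighbour in the order overlapped. In SLIRP-Veh RRM2 was first at 98.4 CPM per kilobase, overlapping TYMS at 89.5, and both were separate from RRM1 at 67.4, which was separate from TK1 at 41.5 and DCTD at 40.03. In SLIRP-DHT RRM2 at 143 was separate from TYMS at 105 and RRM1 at 86.2 CPM per kilobase, and SAMHD1 was last at 14.7. RRM2 thus went from the sixth place in NS-Veh to the third in NS-DHT and the first in both SLIRP siRNA groups.

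**Figure D4:**
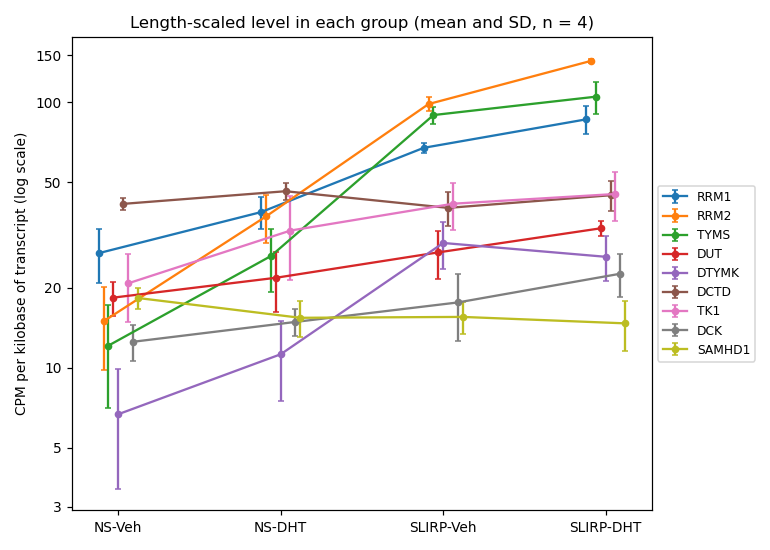
Mean level of each of the 9 genes per kilobase of transcript (y axis, CPM per kilobase, log scale) in the 4 groups (x axis), with the SD over 4 libraries and lines that join the means of a gene. RRM2, TYMS and RRM1 leave the other 6 genes in the SLIRP siRNA groups, while DCTD stays near its NS-Veh level of 41.4.

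The androgen comparison asked which of these genes respond to DHT. In NS cells RRM2 had a log2 fold change of 1.15 (SE 0.15), or 2.23-fold, without overlap of the groups, which 4.84% of all genes tested had in that direction. RRM2 stands in the study's list of androgen-regulated genes, which was made on these same 8 libraries, so this value is a description. None of the other 8 genes passed the FDR of 0.01 in NS cells by edgeR. TYMS was nearest, at a log2 fold change of 0.91 (SE 0.22, edgeR Benjamini-Hochberg FDR 0.0155), with DHT replicate 2 inside the range of the vehicle libraries. Without that library the value was 1.09 (edgeR Benjamini-Hochberg FDR 0.00196), and with all libraries DESeq2 gave 0.93 (Benjamini-Hochberg FDR 0.00660), so this call depends on the library and the tool. RRM1 had 0.44 (SE 0.13, FDR 0.067 by edgeR with Benjamini-Hochberg adjustment), TK1 0.55 (SE 0.22, FDR 0.239) and DTYMK 0.67 (SE 0.34, FDR 0.425). The log2 fold changes of DUT, DCK, DCTD and SAMHD1 were 0.18, 0.30, 0.15 and -0.23. Of all genes tested in NS cells, 0.777% were called higher and 0.309% lower with DHT.

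In SLIRP siRNA cells, RRM2 was the only one of the 9 genes called with DHT. Its log2 fold change was 0.54 (SE 0.10, edgeR Benjamini-Hochberg FDR 0.00102), or 1.45-fold, and all 4 DHT libraries lay above all 4 vehicle libraries. On the authors' normalized table the size was nearly the same, 0.50, but the call was lost (limma Benjamini-Hochberg FDR 0.237). RRM1 had 0.34 (SE 0.11, edgeR Benjamini-Hochberg FDR 0.068) and DUT 0.26 (SE 0.16, FDR 0.454), both without overlap of the groups, and TYMS had 0.23 (SE 0.13, FDR 0.415) with overlap. TK1, DCK, DTYMK, DCTD and SAMHD1 lay between -0.11 and 0.30 and did not pass. In this comparison 0.636% of all genes tested were called higher and 0.534% lower, and groups without overlap, which 3 of the 9 genes had, were found for 4.31% in that direction.

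Whether the response to DHT differed between the siRNAs was tested by an interaction term, the log2 response in SLIRP siRNA cells minus that in NS cells. It was -0.62 (SE 0.18) for RRM2, for which the NS response had been used in choosing the study's list. For TYMS it was -0.68 (SE 0.26) and for DTYMK -0.78 (SE 0.41), both with an edgeR Benjamini-Hochberg FDR of 1.00. RRM1, with -0.10 (95% interval -0.44 to 0.24), and DUT, with 0.08 (-0.40 to 0.57), were nearer to 0. No difference in response passed the adjustment for any of the 9 genes, nor for any of the 10684 genes tested (0% called by edgeR, with 388 genes, or 3.63%, at an unadjusted p under 0.05). DESeq2 also called 0 genes, with 196 under 0.05. In simulated libraries of these depths the interaction recovered 65% of 200 genes changed 2-fold, and smaller differences would be missed more often.

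Beyond the 9 genes, 54 others of nucleotide synthesis, salvage and breakdown were counted, of which 49 were tested. With SLIRP siRNA 16 rose and 4 fell in vehicle and 16 rose and 3 fell in DHT, against 11.8% and 12.8% of all genes called higher and 9.95% and 11.6% called lower. The median log2 fold change of the 49 was 0.28 in vehicle and 0.26 in DHT, beside -0.01 and -0.02 over all genes tested. With DHT 2 rose in NS cells and 2 in SLIRP siRNA cells, beside 0.777% and 0.636% of all genes tested called higher. None fell, beside 0.309% and 0.534% called lower.

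In the folate cycle that feeds TYMS, 2 of 4 genes rose with SLIRP siRNA in vehicle and 3 in DHT. Among the 4 pool-cleaning enzymes, which destroy damaged nucleotides before they enter DNA, 2 rose in vehicle and 1 in DHT. NUDT1, which removes oxidized purine nucleotides, rose by 1.47 on the log2 scale (SE 0.41, edgeR Benjamini-Hochberg FDR 0.00531) in vehicle, on 1 to 9 counts per NS-Veh library. Its value in DHT was 0.81 (SE 0.41), which did not pass. In salvage, PNP, a purine nucleoside phosphorylase, rose by 0.96 (SE 0.18, edgeR Benjamini-Hochberg FDR 6.42e-05) in vehicle, and UCK2, a uridine and cytidine kinase, by 0.89 (SE 0.20, FDR 0.000561) in DHT.

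Purine synthesis did not move as a block. Of 12 genes, 5 rose and 1 fell in each siRNA comparison. GMPS, which makes GMP, rose by 0.84 (SE 0.11, edgeR Benjamini-Hochberg FDR 7.03e-08) in DHT, while PAICS, which carries out middle steps of the same route, fell by 0.98 (SE 0.08, edgeR Benjamini-Hochberg FDR 8.89e-13) in vehicle and fell by 0.79 (SE 0.07, FDR 5.76e-11) in DHT. PAICS was 732 ± 44.5 CPM in NS-Veh and 371 ± 17.9 CPM in SLIRP-Veh, with no overlap. In SLIRP siRNA cells PAICS rose with DHT by 0.34 (SE 0.08, edgeR Benjamini-Hochberg FDR 0.00759).

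Of the 8 nucleotide kinases tested, 2 rose and 2 fell in vehicle and 2 rose and 1 fell in DHT. GUK1, which phosphorylates GMP and dGMP, fell by 0.77 (SE 0.15, edgeR Benjamini-Hochberg FDR 6.73e-05) on the log2 scale in vehicle. CMPK2, a mitochondrial kinase known as an interferon-stimulated gene, was 8.83 to 16.01 CPM in NS-Veh and 7.31 to 17.0 CPM in NS-DHT, against 0 to 4.70 CPM in SLIRP-Veh and 0 to 2.82 CPM in SLIRP-DHT. It fell in both siRNA comparisons (edgeR Benjamini-Hochberg FDR 0.000169 and 7.31e-05), and with at most 3 counts in a library with SLIRP siRNA its fold is not given. APRT, a salvage enzyme for adenine, fell by 0.58 (SE 0.14, edgeR Benjamini-Hochberg FDR 0.00106) in vehicle and fell by 0.48 (SE 0.13, FDR 0.00400) in DHT.

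Over the 16 libraries, the genes with at least 100 counts on average whose centred log2 CPM lay nearest to that of RRM2 were MKI67, LMNB1, FAM111B, PCNA and TOP2A, at a root mean square difference of 0.333, 0.369, 0.375, 0.380 and 0.402 on the log2 scale among 2697 genes compared. MKI67 is a proliferation antigen, LMNB1 a lamin, PCNA the sliding clamp of DNA replication and TOP2A a topoisomerase of late cell cycle. The log2 fold change with DHT in NS cells was 1.15 for RRM2 and between 0.46 and 1.53 for these 5, with FAM111B above RRM2 and the other 4 below. FAM111B and PCNA passed the FDR of 0.01 there by edgeR. MKI67, LMNB1 and TOP2A did not pass, and their groups overlapped. The 5 genes were picked by likeness to RRM2 over libraries that include these. Their DHT values are therefore a description and not a test. With the minimum set to 30 counts the nearest were CEP55 (0.157), TYMS (0.243), MYBL2 (0.258), DTL (0.264) and CLSPN (0.271), none of the first 5. Of the other members, RRM1 and DTYMK lay at 0.647 each, TK1 at 0.891, DUT at 0.999, DCK at 1.06, DCTD at 1.31 and SAMHD1 at 1.43.

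**Figure D5:**
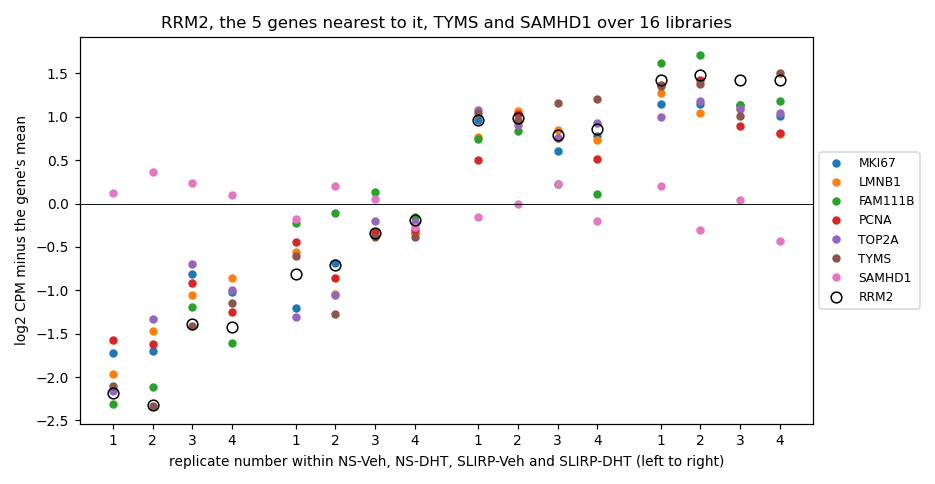
Log2 CPM minus the mean of each gene over the 16 libraries (y axis) for RRM2 (open circles), the 5 genes nearest to it, TYMS and SAMHD1, with the libraries by group and replicate on the x axis. RRM2 and the 5 genes nearest to it lie lowest in NS-Veh and highest in the SLIRP siRNA groups, and SAMHD1 stays within a narrow band.

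The cell cycle lists rose with SLIRP siRNA, as RRM2 and TYMS did and DCTD and SAMHD1 did not. The part of these lists in the results above was not tested. RRM1, RRM2 and TYMS belong to the S phase list of the Seurat package, and of the other 40 S phase genes, all tested, 33 were called higher with SLIRP siRNA in vehicle and 34 in DHT, at a median log2 fold change of 1.38 and 1.12. Their summed level was 920 to 1146 CPM in NS-Veh, 1477 to 1801 in NS-DHT, 2481 to 3059 in SLIRP-Veh and 3186 to 4171 in SLIRP-DHT, in the same order of groups as RRM2 and without overlap. Of 53 G2/M genes tested, 44 were called higher and 1 lower in vehicle, and 46 higher and 0 lower in DHT. Of all genes tested, 11.8% were called higher in vehicle and 12.8% in DHT. With DHT, 9 of the 40 S phase genes rose in NS cells (median 0.82) and 2 in SLIRP siRNA cells (median 0.48), beside 2 and 1 of the 53 G2/M genes (medians 0.33 and 0.17). The shares of all genes called higher with DHT were 0.777% and 0.636%.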

How the data were processed

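RNA of 16 LNCaP libraries was sequenced by the authors as single 50-base reads, and the submitters' processing notes name CASAVA and RSEM and the build hg19. Versions, annotation and strand use are not given in the sources used here. The authors deposited RSEM expected counts (estimated counts rounded to whole numbers), and a table of 13148 genes with a normalized score, the counts scaled by each library's upper quartile. The 29 entries with no symbol were not removed before the filter on low counts. They held 0.030% to 0.042% of the counts of a library.

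The counts were fitted with edgeR 4.0.16 in R 4.3.3 (TMM, filterByExpr, glmQLFit, glmQLFTest, 4-group model over 16 libraries, Benjamini-Hochberg over 10684 genes, FDR 0.01). Ratios were compared by exact permutation over 70 splits. Likeness used log2 CPM with a prior count of 2. Genes named were all members, RRM2B, CMPK2, the 3 largest called rises and falls of the pathway list in each siRNA comparison and the 5 genes nearest to RRM2. Some genes that this rule or a count gives are not reported here by name. APRT in vehicle, the DHT call of PAICS, ENOSF1 and the genes near RRM2 at 30 counts were added after their values were seen. Members and lists were chosen with earlier results of these data known. Each group had 2 replicates in each of 2 experiments per the methods, the labels do not say which numbers belong together, and p-values measure the spread between these samples. No term for the experiment was fitted. The tests and the 70 splits took the 4 libraries of a group as independent, so their p-values may be too small.

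Libraries of a group differed by more than sampling noise (chi-square per degree of freedom 1.21 to 2.26). In the NS groups it was lowest for replicates 1 with 2 and 3 with 4 (1.23 and 1.37 in NS-Veh, 1.21 and 1.29 in NS-DHT). In the SLIRP groups this did not hold for both pairs. In simulated data with 200 genes changed 2-fold, 88% were recovered for SLIRP-Veh vs NS-Veh with 3 false calls among 179. Alternatives used DESeq2 1.42.0, limma 3.58.1 on the normalized score (log2, pseudocount 1 or 0.1), other scalings and filters, a replicate block and fewer libraries. Gene positions come from GENCODE 44 on hg19, promoters from RefSeq on GRCh38.p14. Figures were drawn with matplotlib 3.10.9. The 95% intervals and the standard errors of genes come from the edgeR fit, those of ratios from the spread between libraries.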

Additional observations from a re-analysis of the deposited data

Results flagged for a closer look

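Of 44 sets of 4 libraries examined, 1 had a library apart from the other 3. RRM2 in SLIRP-DHT was 479.5 CPM in replicate 2 and 461.6 to 462.2 CPM in the other 3, so that the gap was 0.968 of the whole range (above Dixon's limit for 4 values). Chance gives about 1 such set in 20, and the spread of this group (SD 8.82 CPM) was the smallest of the 4 groups for RRM2.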

How the results depend on the processing

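Of 1241 values of the 9 genes under the alternatives, 1171 kept their direction and their side of the threshold, 20 lost the call, 13 gained it and 37 reversed. The direction held for RRM2 and TYMS in every alternative run. RRM2 between siRNAs ranged from 2.25 to 3.30 in vehicle and 1.70 to 2.24 in DHT, its DHT response from 1.02 to 1.54 in NS and 0.48 to 0.61 in SLIRP siRNA cells. The cause of these changes was not tested.

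Most values that reversed were near 0. The interaction of DCK, -0.0036 by edgeR with all libraries, reached 0.22 with only replicates 3 and 4 and 0.28 when a library was left out. Between siRNAs in vehicle DCTD was 0.078 with only replicates 3 and 4. In the DHT response of SLIRP siRNA cells with only replicates 1 and 2, TK1 was -0.035, DCK -0.10 and SAMHD1 0.079. In the interaction DCK was 0.015 (RLE), 0.044 (DESeq2), 0.0057 (no filter), 0.076 (limma, both pseudocounts) and 0.22 (only replicates 3 and 4), DCTD was -0.049 (limma, both pseudocounts) and -0.093 (only replicates 3 and 4), and DUT was -0.072 (only replicates 3 and 4). Leaving out each library in turn, the values of genes that reversed ranged from -0.14 to 0.0025 for DCTD between siRNAs in vehicle, from -0.13 to 0.040 for DCTD and -0.19 to 0.054 for SAMHD1 in DHT, from -0.021 to 0.26 for DUT with DHT in NS, from -0.26 to 0.027 for DTYMK and -0.16 to 0.077 for SAMHD1 with DHT in SLIRP siRNA cells, and in the interaction from -0.24 to 0.015 for RRM1, -0.10 to 0.28 for DCK and -0.077 to 0.11 for DCTD.

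Counts of calls moved most with limma and with fewer libraries. Of the 49 pathway genes, those lower in vehicle numbered 2 under limma and 1 with only replicates 1 and 2, and those higher numbered 8 with either pair of replicates. In DHT limma called 3 members and 9 pathway genes higher and 1 lower, replicates 1 and 2 gave 9 higher and 1 lower, replicates 3 and 4 gave 8 higher, and an FDR of 0.05 gave 5 lower. With DHT in NS cells 2 members were called at an FDR of 0.05, by DESeq2, without a filter and by limma with pseudocount 1, TYMS being the one gained, and 1 to 2 when a library was left out (2 without NS-DHT replicate 2). Pathway genes there numbered 1 under limma, 0 with replicates 1 and 2, 1 with replicates 3 and 4, and 0 to 2 when a library was left out (0 without replicate 4 of NS-Veh or of NS-DHT, 1 without replicate 1 of either, replicate 2 of NS-Veh or replicate 3 of NS-DHT). In SLIRP siRNA cells limma called 0 members and 0 pathway genes (RRM2 0.50, FDR 0.237 or 0.274), either pair of replicates 0 pathway genes, upper-quartile scaling and only the groups compared 1, an FDR of 0.05 4, and leaving out a library 1 to 2 (1 without NS-Veh replicate 3, SLIRP-Veh replicate 1, 3 or 4, or SLIRP-DHT replicate 2 or 3). Between siRNAs in vehicle DUT and DCK were called without SLIRP-Veh replicate 2, and in DHT DUT lost its call without NS-DHT replicate 2 or SLIRP-DHT replicate 3 and DCK without NS-DHT replicate 1, 2 or 3 or SLIRP-DHT replicate 3 or 4. DCK lost it by DESeq2 too. At 30 counts, 0 of the 5 genes nearest to RRM2 stayed. The difference between DHT and vehicle in NS cells in the mean log2 ratio was also followed as each library was left out. It ranged from 1.10 to 1.51 for RRM2 to RRM2B and from 0.71 to 0.94 for RRM2 to RRM1. For RRM2 to RRM2B the exact permutation p was 0.0571 to 0.0857 when any NS-DHT library was left out. For RRM2 to RRM1 it was 0.0571 without NS-DHT replicate 4.

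The labels repeat the replicate numbers 1 to 4 in each group, but same-numbered libraries deviated together only weakly. The correlations over 6965 genes were 0.0107 to 0.0626 between siRNAs in vehicle, 0.0379 to 0.194 in DHT, 0.0504 to 0.201 between treatments in NS and 0.000111 to 0.184 in SLIRP siRNA cells, and 2, 3, 2 and 2 of 4 libraries matched their own number best. As a replicate block the number gave 2 members called with DHT in NS cells (TYMS 0.94, FDR 0.00525), turned the interaction of DCTD to -0.014, and called 2455 genes between siRNAs in vehicle against 2319 without it. The interaction was not run on only the groups compared. Depth limits DTYMK most, with 1 to 13 counts in NS-Veh.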
